A study of Mus musculus with 16 samples.

Results

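The 10 genes described here encode or were listed with proteins of the specific and gelatinase granules of neutrophils: Ltf, Camp, Ngp, Lcn2, Chil3, Cd177, Mmp8, Mmp9, Ltb4r2 and Lyz2. They were chosen as a list of names, with no measured value in the rule but with earlier results of these data known. All 10 were found among the 49585 gene identifiers counted. The libraries were made from neutrophils that the study describes as sorted by flow cytometry, taken from bones of C57BL/6 mice aged 8 to 12 weeks. Of 16 libraries, 4 were labelled Vav:cre-PHD2f/f (P2KO) and 4 were their wild-type controls (P2WT). A further 4 were labelled Vav:cre-PHD2/HIF2ff/ff (P2H2KO), and the last 4 were the wild-type controls of that line (P2H2WT). PHD2 is an oxygen sensor that marks the hypoxia-inducible factors HIF1α and HIF2α for degradation. Vav:cre is a recombinase transgene active in blood-forming cells generally, so the labelled deletions are not limited to neutrophils. No treatment is labelled, and the labels do not say whether the wild-type controls carried Vav:cre or floxed alleles. Nothing in them states that each library came from a separate animal, so the p-values measure the spread between libraries.

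Neutrophils pack their proteins into granules in the order in which the genes are switched on during maturation in the bone marrow. Azurophil granules fill first, at the promyelocyte stage, specific granules follow in myelocytes and metamyelocytes, and gelatinase granules fill last, in band cells. Transcription of the specific granule genes depends on C/EBPε, and their messages fade from the mature circulating cell, which already holds the protein. On stimulation gelatinase granules are released more readily than specific granules, and both more readily than azurophil granules.

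The upstream sequences of 4 members are shown first, because they carry a shared letter pattern of the C/EBP family, whose member C/EBPε drives specific granule genes. Each is the 250 bases before the transcription start in the RefSeq table of GRCm38.p6, written 5′ to 3′ on the strand of the gene. The windows lie at chr9:111019042-111019291 on the plus strand for Ltf and at chr9:110419558-110419807 on the plus strand for Ngp. That of Lcn2 lies at chr2:32387740-32387989 on the minus strand, and that of Mmp8 at chr9:7558179-7558428 on the plus strand. GENCODE M21, whose gene bounds are given below, sets some starts farther upstream than RefSeq. By those bounds the Lcn2 window lies wholly inside the gene, those of Ngp and Ltf reach into it, and that of Mmp8 stays outside. Capitals mark matches to TTNNGCAA on either strand.
Ltf: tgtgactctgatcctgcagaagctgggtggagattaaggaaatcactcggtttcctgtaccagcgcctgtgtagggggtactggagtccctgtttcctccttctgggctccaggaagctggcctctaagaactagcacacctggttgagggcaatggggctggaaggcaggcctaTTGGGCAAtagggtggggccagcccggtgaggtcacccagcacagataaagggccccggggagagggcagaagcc
Ngp: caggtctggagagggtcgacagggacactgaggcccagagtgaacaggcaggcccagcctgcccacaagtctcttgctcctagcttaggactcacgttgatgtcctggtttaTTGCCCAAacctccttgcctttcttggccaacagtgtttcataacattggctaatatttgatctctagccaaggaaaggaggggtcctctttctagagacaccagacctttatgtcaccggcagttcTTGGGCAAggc
Lcn2: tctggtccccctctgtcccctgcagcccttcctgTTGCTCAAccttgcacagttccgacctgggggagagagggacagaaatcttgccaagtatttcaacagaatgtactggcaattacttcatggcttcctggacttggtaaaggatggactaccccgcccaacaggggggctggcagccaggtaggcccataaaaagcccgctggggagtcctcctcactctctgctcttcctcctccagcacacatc
Mmp8: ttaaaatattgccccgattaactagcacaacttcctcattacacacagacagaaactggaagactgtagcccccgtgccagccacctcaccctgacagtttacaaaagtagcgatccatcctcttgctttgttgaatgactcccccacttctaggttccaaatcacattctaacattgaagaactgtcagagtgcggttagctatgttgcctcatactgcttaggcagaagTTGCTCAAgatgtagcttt
Of the 10 members, 8 were in the promoter table, and these 4 of the 8 held TTNNGCAA, with more than 1 match only in Ngp. The same pattern stood in 9.56% of 32851 windows of that length. GAGGAA, a core of sites for the myeloid factor PU.1, was found on either strand in 4 of the 8 (Cd177, Lcn2, Ltf and Mmp8), against 23.3% of all windows. ACGTG, the core of the hypoxia response element bound by HIF, was found in 1 of the 8, Ngp, against 16.6% of all windows. A match describes letters only, and the windows of Camp, Chil3 and Lyz2 held none of the 3 patterns.

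Total counts per library lay between 23450746 and 28601284. Values below are CPM, the usual depth-scaled count level, relative to the TMM-scaled library size, and log2 fold changes come from edgeR. Egln1, which encodes PHD2, lay at 43.2 to 58.4 CPM in P2KO and 46.0 to 51.3 in P2WT, and at 49.2 to 58.8 in P2H2KO and 47.9 to 54.6 in P2H2WT. Epas1, which encodes HIF2α, lay at 3.42 to 8.39 CPM in P2H2KO and 2.55 to 4.98 in P2H2WT. The targeted genes were therefore not lower in the libraries labelled as deficient. Counts over whole genes do not show the loss of single exons, so this checks neither label nor genotype, and P2KO and P2H2KO stand throughout for the libraries so labelled. All 8 neutrophil markers were detected, and S100a9, a subunit of calprotectin, had the highest mean of all genes at 13162 CPM. The 13 erythroid markers found summed to 27317 to 55719 CPM, or 2.65% to 5.54% of a library's counts. Hbb-bs, a β-globin, had a mean of 12962 CPM, and Prg2, the eosinophil major basic protein, had a mean of 2760.6 CPM. The libraries therefore held RNA of other cell types beside that of neutrophils.

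Together the members took between 2.86% and 6.28% of all counts in a library, and 9 of them were among the 71 most abundant genes. Ngp, a cathelicidin-related protein of specific granules, was the third gene by mean count level at 11794 CPM. Ltf, which encodes the iron-binding protein lactoferrin, followed at 8939 CPM, and Lyz2, the lysozyme of macrophages and neutrophils, at 8495 CPM. Chil3 (a chitinase-like protein, also called Ym1) and Lcn2 (lipocalin 2, which binds bacterial siderophores) had nearly the same mean, 3416 and 3406 CPM. Camp, which encodes the antimicrobial peptide precursor CRAMP, had a mean of 3047 CPM. Mmp9, or gelatinase B, the enzyme after which gelatinase granules are named, had a mean of 1818 CPM. The surface protein Cd177 stood at 1733 CPM and Mmp8, neutrophil collagenase, at 1120.3 CPM.

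Per kilobase of exon the order of levels was different. Ngp remained first at 9651 CPM per kb, and Lyz2 and Camp came next with 6455 and 4020 CPM per kb. Ltf had 2591 CPM per kb, Chil3 2093 and Lcn2 1298. Cd177 had 610.1 CPM per kb, Mmp9 514 and Mmp8 462. On this scale the 2 metalloproteinases and Cd177 were the lowest of the 9 abundant members.

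Ltb4r2 stood apart from the other members. It encodes BLT2, a leukotriene B4 receptor of the G protein-coupled family, which is not a granule protein. Its counts summed to 16 in P2KO, 22 in P2WT, 20 in P2H2KO and 15 in P2H2WT, with 0 to 8 counts in a library. The library with a count of 0, P2H2WT replicate 14, allows a level of up to 0.119 CPM (3 counts, counting error only). Ltb4r2 therefore did not pass the filter on low counts and no difference was detectable at this depth. Its neighbour Ltb4r1, which encodes the high-affinity receptor BLT1 and lies 823 bases away, had a mean of 177 CPM.

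In GENCODE M21 on GRCm38 no exon of the 10 members shared bases with another gene. Ltf (chromosome 9, 111019271 to 111042767, plus strand), Ngp (chromosome 9, 110419747 to 110423012, plus strand) and Camp (chromosome 9, 109847379 to 109849617, minus strand) lie within 1195389 bases of each other. Mmp8 lies elsewhere on the same chromosome (7558456 to 7568485, plus strand). Lcn2 (32384633 to 32388252, minus strand) and Mmp9 (164940780 to 164955850, plus strand) lie far apart on chromosome 2. Chil3 is on chromosome 3 (106147554 to 106167564, minus strand), Cd177 on chromosome 7 (24743983 to 24760311, minus strand), Lyz2 on chromosome 10 (117277331 to 117282321, minus strand) and Ltb4r2 on chromosome 14 (55761428 to 55765138, plus strand). Lyz2 and Chil3 have near neighbours of similar sequence, and how reads shared between such copies were counted is not given in the sources used here. Lyz1 held 0.0695% to 0.132% of the summed counts of Lyz1 and Lyz2. Chil4 held 0.00904% to 0.0299% of those of Chil3 and Chil4.

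Among the proteins of specific granules, Ltf was at 7558, 5796, 13790.0 and 5620.0 CPM in P2KO replicates 1, 5, 6 and 9. In P2WT it was at 11105, 7638, 7238 and 7280.0 CPM in replicates 10, 3, 4 and 7. Each group thus had a single high library and 3 lower ones, and the ranges overlapped throughout. P2KO had a mean of 8191 ± 3834 CPM (SD, n = 4), and the mean of P2WT was 8315 ± 1869 CPM. The log2 fold change was -0.0084 (95% interval -0.70 to 0.69, edgeR adjusted p = 1).

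In the other line Ltf was at 8083, 7410.2, 11786 and 13564 CPM in P2H2KO replicates 11, 12, 15 and 17. In P2H2WT it was at 8347, 7883, 7912 and 12015 CPM in replicates 13, 14, 16 and 18. Replicates 15 and 17 of P2H2KO and replicate 18 of P2H2WT were high, and the remaining 5 libraries lay close together. The means were 10211 ± 2949 CPM (SD, n = 4) and 9039 ± 1995 CPM, and the log2 fold change was 0.18 (95% interval -0.34 to 0.69, edgeR adjusted p = 1).

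Ngp was at 9810.3, 7561, 15920 and 7839 CPM in P2KO replicates 1, 5, 6 and 9. In P2WT replicates 10, 3, 4 and 7 it was at 14137, 9372, 9104 and 9420 CPM. The same libraries as for Ltf were high, and the groups overlapped. In P2H2KO replicates 11, 12, 15 and 17 it was at 11403, 10169, 15241 and 19180 CPM, and in P2H2WT replicates 13, 14, 16 and 18 at 11505, 10631, 11596 and 15815 CPM. Replicate 17 of P2H2KO held the highest Ngp level of all 16 libraries. The log2 fold changes were -0.019 (95% interval -0.63 to 0.60) in the P2 line and 0.18 (-0.32 to 0.68) in the P2H2 line, with an edgeR adjusted p of 1 in both.

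Lcn2 was at 2850, 2112, 4970 and 2013 CPM in P2KO replicates 1, 5, 6 and 9. In P2WT replicates 10, 3, 4 and 7 it was at 4053, 2735, 2666 and 2696 CPM. Replicates 3, 4 and 7 of P2WT lay close together and replicate 10 stood above them. In P2H2KO replicates 11, 12, 15 and 17 it was at 3258, 2992, 4478 and 5326 CPM, and in P2H2WT replicates 13, 14, 16 and 18 at 3398, 2984, 3261 and 4697 CPM. The groups overlapped in both lines, with log2 fold changes of -0.011 (95% interval -0.69 to 0.67) and 0.16 (-0.32 to 0.64).

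Camp was at 2643, 2125, 3811 and 2064 CPM in P2KO replicates 1, 5, 6 and 9, and at 3293, 2506, 2411 and 2254 CPM in P2WT replicates 10, 3, 4 and 7. In P2H2KO replicates 11, 12, 15 and 17 it was at 3257, 2449, 3757 and 4874 CPM, and in P2H2WT replicates 13, 14, 16 and 18 at 3284, 2837, 3126 and 4067 CPM. Its libraries followed the same order as those of Ltf in the P2H2 line. The log2 fold changes were 0.037 (95% interval -0.46 to 0.53) and 0.11 (-0.36 to 0.57). Cd177 ranged from 1057 to 2593 CPM in P2KO and from 1343 to 2152 CPM in P2WT, with a log2 fold change of -0.0090 (-0.70 to 0.68). In the P2H2 line its range was 1498 to 2629 CPM in P2H2KO and 1461 to 2301 CPM in P2H2WT, with a log2 fold change of 0.18 (-0.28 to 0.64).

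Chil3 ranged from 2124 to 4358 CPM in P2KO and from 2741 to 3791 CPM in P2WT, a log2 fold change of -0.066 (95% interval -0.58 to 0.45). It ranged from 2969 to 4767 CPM in P2H2KO and from 2854 to 4458 CPM in P2H2WT, a log2 fold change of 0.012 (-0.43 to 0.46). Lyz2, whose protein is stored in all granule types, was at 7088, 6136, 9619 and 4824 CPM in P2KO replicates 1, 5, 6 and 9. In P2WT replicates 10, 3, 4 and 7 it was at 8987, 7535, 7041 and 7895 CPM. Replicate 9 of P2KO held the lowest Lyz2 level of the 16 libraries, and the log2 fold change was -0.17 (-0.65 to 0.30). In P2H2KO replicates 11, 12, 15 and 17 Lyz2 was at 7359, 7185, 12133 and 12176 CPM, so that the group formed a low and a high pair. In P2H2WT replicates 13, 14, 16 and 18 it was at 8478, 7337, 10332 and 11795 CPM, and the log2 fold change was 0.034 (-0.49 to 0.56).

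Both Lyz2 and Chil3 are also expressed by monocytes and macrophages, whose markers are therefore given here. Of the 17 monocyte and macrophage markers tested, 16 were lower in P2KO than in P2WT, with a median log2 fold change of -0.29, and 12 were lower in P2H2KO, with a median of -0.22. Their summed level was 2772 to 3405 CPM in P2KO and 3457 to 4191 in P2WT, and 2883 to 5082 in P2H2KO and 3199 to 4896 in P2H2WT. None of the 17 was at 0 in all libraries and none was called by edgeR, with 4 and 9 of the 17 at an unadjusted p under 0.05, all lower, against 3.49% and 2.63% of all genes. The part of these cells in the Lyz2 and Chil3 values was not tested.

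**Figure D1:**
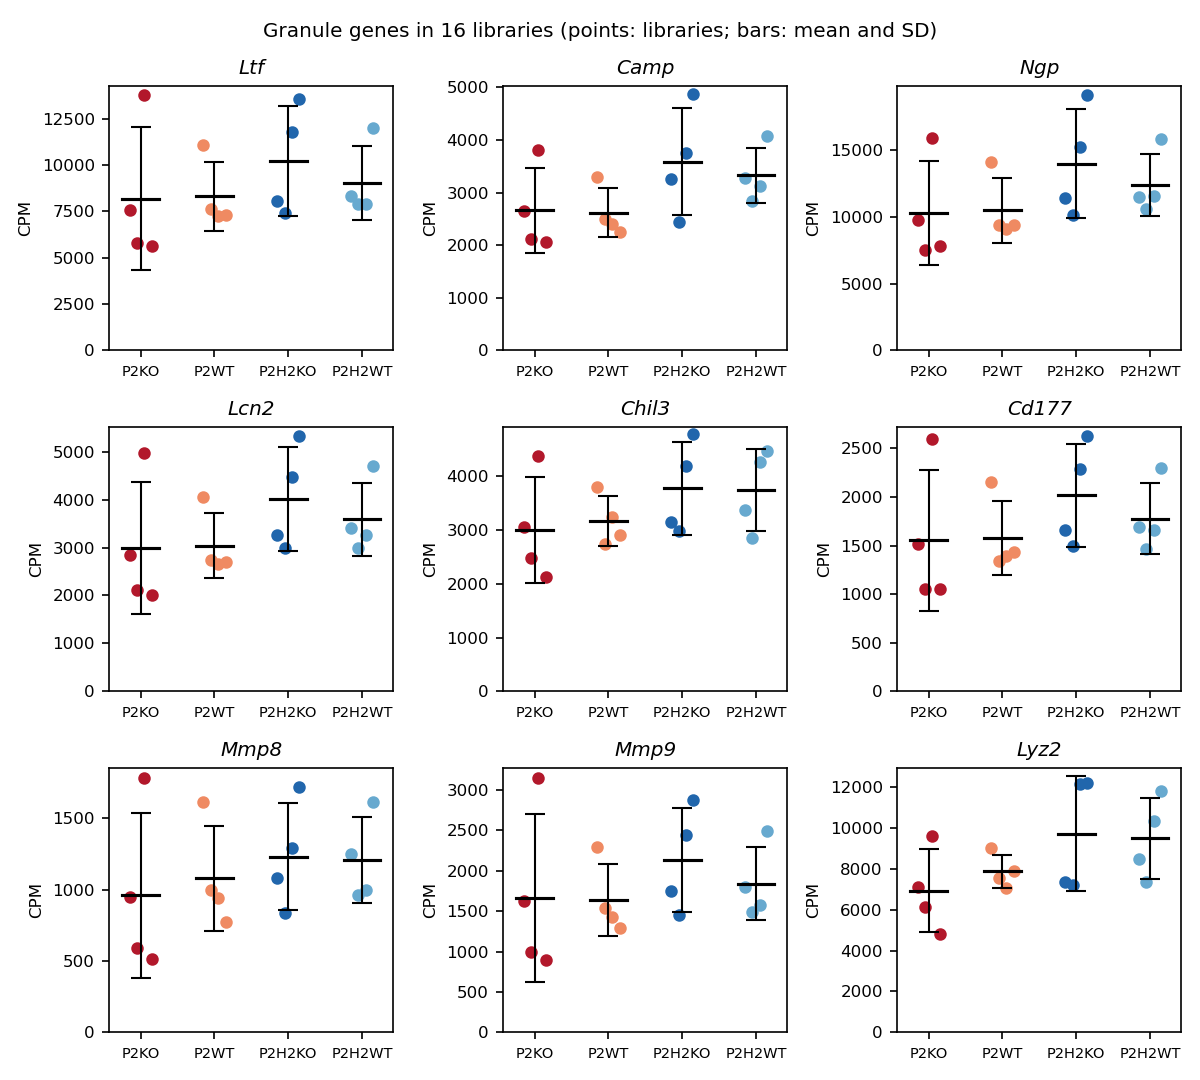
CPM of the 9 abundant members in each library (points), with the mean (bar) and SD of the 4 libraries of each group; each panel has its own axis from 0. The ranges of the groups overlap in every panel, and the highest P2KO point of Ltf, 13790.0 CPM, is the highest of all 16.

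Of the abundant members, the metalloproteinase transcripts Mmp8 and Mmp9 varied most within groups, with SDs of log2 CPM of 0.54 and 0.53. Mmp8 was at 950.6, 589, 1783 and 516 CPM in P2KO replicates 1, 5, 6 and 9. In P2WT replicates 10, 3, 4 and 7 it was at 1614, 996, 940.2 and 774 CPM. P2KO thus held both the highest and the lowest Mmp8 level of the 16 libraries, which differed 3.46-fold. The log2 fold change was -0.16 (95% interval -1.06 to 0.74). In P2H2KO replicates 11, 12, 15 and 17 Mmp8 was at 1079.8, 839, 1295 and 1717 CPM, and in P2H2WT replicates 13, 14, 16 and 18 at 1253, 964, 999 and 1617 CPM. The log2 fold change there was 0.029 (-0.50 to 0.56).

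Mmp9 was at 1626, 989, 3146 and 894 CPM in P2KO replicates 1, 5, 6 and 9, and at 2292, 1544, 1434 and 1287 CPM in P2WT replicates 10, 3, 4 and 7. Its P2KO libraries spanned 3.52-fold, the widest range of any of the 9 members in a group. In P2H2KO replicates 11, 12, 15 and 17 it was at 1745, 1458, 2443 and 2871 CPM, and in P2H2WT replicates 13, 14, 16 and 18 at 1804, 1492, 1575 and 2490 CPM. The log2 fold changes were 0.036 (95% interval -0.85 to 0.92) and 0.21 (-0.32 to 0.74), and in both lines the groups overlapped. Osteoclasts in bone also make Mmp9. The 6 osteoclast markers summed to 102 to 160.1 CPM in P2KO and 84.6 to 133 CPM in P2WT. All 5 that were tested had a positive log2 fold change, 4 of them at an unadjusted p under 0.05, against 3.49% of all genes, and none called by edgeR, while Dcstamp and Calcr stayed under 1 CPM in every library. In P2H2KO and P2H2WT the sums were 64.4 to 116 and 86.4 to 108 CPM. Their part in the Mmp9 values was not tested.

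Between P2KO and P2WT, 0 of the 9 tested members were called by edgeR at an adjusted p under 0.05, against 0.0437% of the 13734 genes tested. An unadjusted p under 0.05 was also reached by 0 of 9, against 3.49% of all genes, and DESeq2 called 0 members and 0.168% of genes. In 0 of 9 did the groups not overlap, against 2.25% of genes. The median log2 fold change of the members was -0.011, beside 0.020 over all genes tested, and the values lay between -0.17 (Lyz2) and 0.037 (Camp). In fold terms the interval of Ltf ran from 0.615 to 1.61, and that of Mmp9, the widest upward, from 0.554 to 1.90. Differences inside these intervals were not detectable with 4 libraries against 4.

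Between P2H2KO and P2H2WT, edgeR again called 0 of 9 members, against 0.0744% of the 13435 genes tested. At an unadjusted p under 0.05 it found 0 of 9, against 2.63% of genes, DESeq2 called 0 members and 0.319% of genes, and groups without overlap were found for 0 members and 1.71% of genes. All 9 log2 fold changes were above 0, from 0.012 (Chil3) to 0.21 (Mmp9), with a median of 0.16 beside 0.0011 over all genes. The members varied together across libraries, so these directions are not separate results. Neutrophil markers (8 of 8) and mature neutrophil genes (12 of 12) were also above 0, while 12 of 13 erythroid and 10 of 10 B cell markers were below 0, with medians of 0.20, 0.20, -0.16 and -0.36 and none called by edgeR. Their part in the members' values was not tested. With the title suffix as a covariate Chil3, Mmp8 and Lyz2 stood at -0.12, -0.066 and -0.14, and with the erythroid covariate, chosen after seeing the data, at -0.10, -0.065 and -0.14. Without P2H2KO replicate 17 the log2 fold change of Ltf was 0.011 and that of Mmp9 was 0.035, and those of Camp, Ngp, Lcn2, Chil3, Mmp8 and Lyz2 were below 0.

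The difference of the effects, (P2KO minus P2WT) minus (P2H2KO minus P2H2WT), asks whether the change differs between the lines, and edgeR called 0 of 9 members and 0% of 14080 genes. At an unadjusted p under 0.05 the counts were 0 members and 1.51% of genes, and DESeq2 called 0 members and 0% of genes. The members' values lay between -0.22 and -0.083, with a median of -0.20 beside 0.0012 over all genes. For Ltf the difference was -0.20 (95% interval -1.06 to 0.66, edgeR adjusted p = 0.999), and with a library left out it ran from -0.57 (without P2KO replicate 6) to -0.027 (without P2WT replicate 10).

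Between the wild-type controls, P2WT against P2H2WT, edgeR called 0 of 9 members and 1.22% of 13593 genes. DESeq2 called 0 members and 3.08% of genes, and groups without overlap were found for 0 members and 7.81% of genes. One member, Camp, had an unadjusted p under 0.05, against 11.4% of genes. Its log2 fold change was -0.35 (95% interval -0.68 to -0.026, edgeR adjusted p = 0.394). All 9 values were below 0, with a median of -0.24 beside -0.012 over all genes. The lines were deposited as separate tables, so line and table cannot be told apart. With the mean log2 CPM of the erythroid markers as a covariate, chosen after seeing the data, Lyz2 was called at a log2 fold change of -0.42 (edgeR adjusted p = 0.0284), and the genes called over the whole table rose from 166 to 838.

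**Figure D2:**
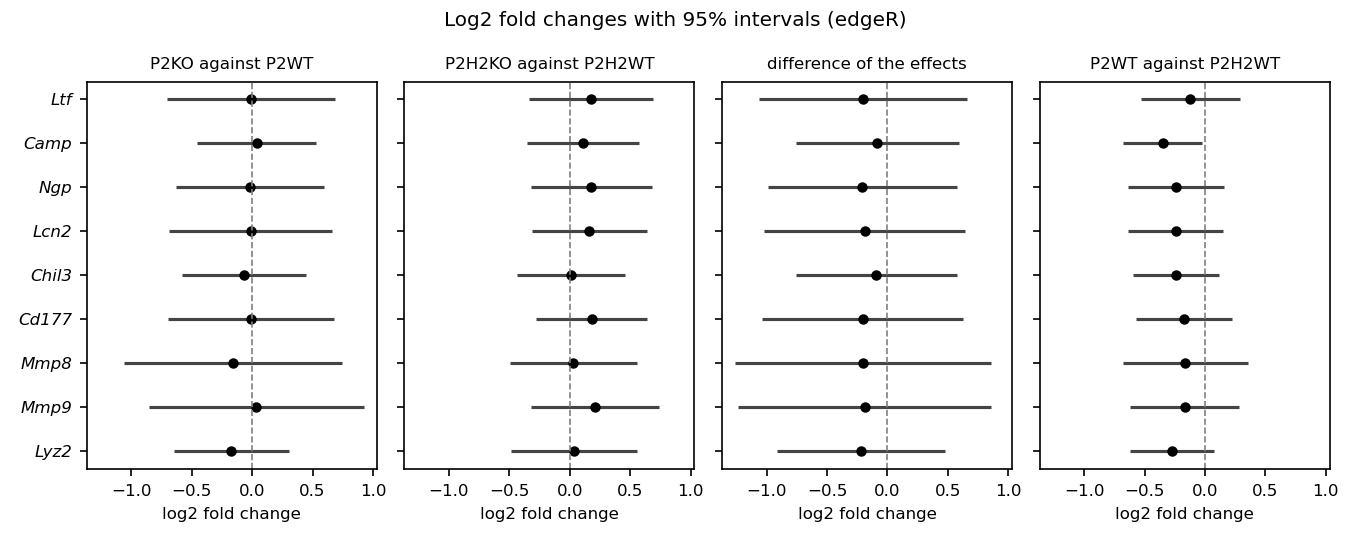
Log2 fold changes (points) with 95% intervals (lines) of the 9 tested members from edgeR, in each of the 4 comparisons; the dashed line marks 0. The interval covers 0 for every member except Camp in the comparison of the wild-type controls, which ends at -0.026.

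By group mean, P2H2KO was highest and P2H2WT second for all 9 abundant members. P2WT followed and P2KO was lowest for Ltf, Ngp, Lcn2, Chil3, Cd177, Mmp8 and Lyz2, whereas Camp and Mmp9 had P2WT lowest. The highest mean exceeded the lowest 1.25-fold for Ltf and 1.40-fold for Lyz2, the smallest and largest of these ratios. Neighbouring groups in this order overlapped for every member.

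The spread within groups was wide beside the median over all genes compared, but not wider than that of other neutrophil genes. The median coefficient of variation (SD over mean) of the 9 members was 46.0% in P2KO, 22.5% in P2WT, 28.9% in P2H2KO and 20.8% in P2H2WT. Over 6960 genes with a mean of at least 20 CPM the medians were 9.76%, 7.19%, 10.3% and 8.5%. In P2KO, S100a8 and S100a9 stood at 41.4% and 42.9%. The granule genes Cybb, Retnlg, Itgb2 and Hp, which are not members, stood there at 32.3%, 53.6%, 35.4% and 37.8%, and the azurophil gene Mpo at 23.9%. Mmp9 had the largest value, 62.5% in P2KO, and Lyz2 the smallest, 10.5% in P2WT. The highest library of each group was the same for every abundant member. P2KO replicate 6, P2WT replicate 10, P2H2KO replicate 17 and P2H2WT replicate 18 were each the highest of their group for 9 of 9 members. S100a8, S100a9, Cybb, Retnlg, Itgb2 and Hp were highest in the same libraries, whereas Mpo was not. P2H2KO replicate 12 and P2H2WT replicate 14 were lowest for 9 of 9, and P2KO replicate 9 for 8 of 9, the exception being Ngp, which was lowest in replicate 5. In P2WT the lowest library differed between members, replicate 4 for Ltf, Ngp, Lcn2 and Lyz2, replicate 7 for Camp, Mmp8 and Mmp9, and replicate 3 for Chil3 and Cd177. Of the libraries highest in their group, P2KO replicate 6 and P2H2WT replicate 18 bear the title suffix m, and P2WT replicate 10 and P2H2KO replicate 17 bear f. In P2H2KO the high libraries, replicates 15 and 17, both bear f and the low ones, replicates 11 and 12, both bear m. The part of the suffix in that spread was not tested.

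**Figure D3:**
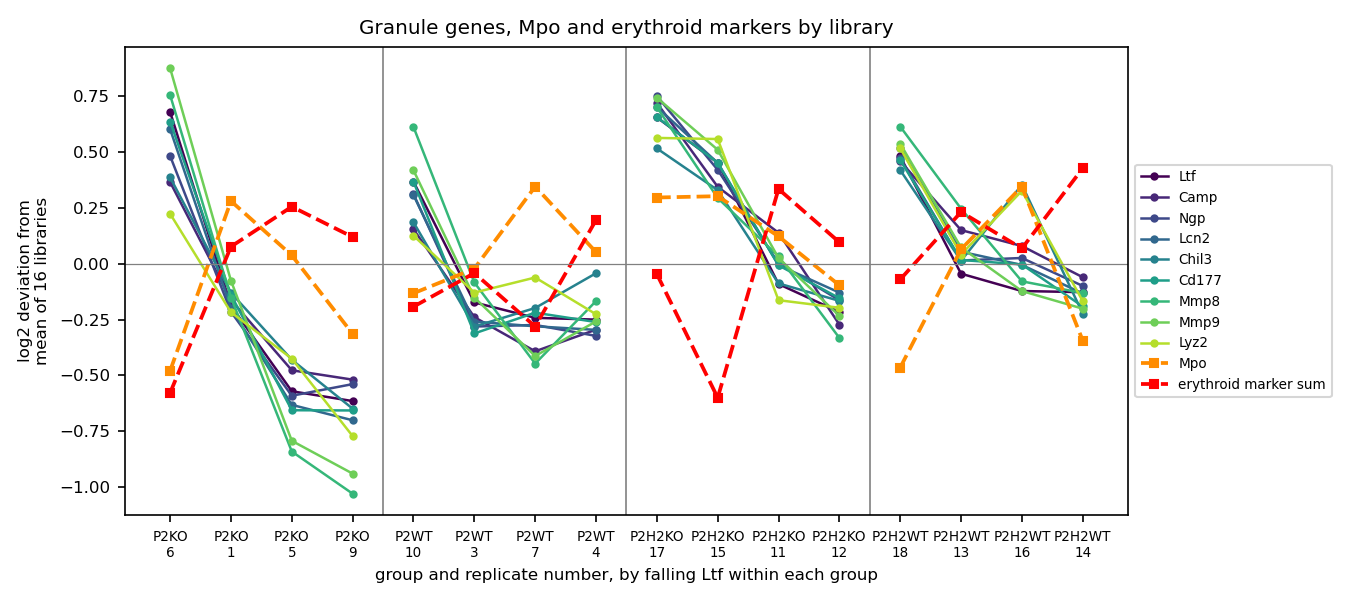
Log2 deviation of each of the 9 abundant members, of Mpo and of the summed erythroid markers (dashed lines) from its mean over 16 libraries, with the libraries of each group ordered by falling Ltf; lines join libraries only to guide the eye. In P2KO replicate 6 the members lie 0.22 to 0.88 above their means and the erythroid sum lies at -0.58.

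The members were also related to Ltf within each line, in 18 relations of log2 CPM over 8 libraries. The share of all genes that the same test would call is not given here. Genes outside the list varied with Ltf too. After removal of the group means, the median r was 0.974 for the neutrophil markers and -0.776 for the cell cycle genes. By Pearson's correlation Lcn2 followed Ltf most closely, at r = 0.998 and Spearman's rho = 0.976 in the P2 line (exact permutation p of 7.44e-05 and 0.000397, adjusted over the 18 relations 0.000279 and 0.00143). In the P2H2 line r was 0.992 and rho 0.952 (exact permutation p 9.92e-05 and 0.00114, adjusted 0.000279 and 0.00228). Without the 2 libraries of each line farthest from the median of Ltf, r was still 0.993 and 0.979 over 6 libraries. Ngp had r of 0.992 and 0.986, Cd177 0.991 and 0.986, and Mmp9 0.985 and 0.986 in the 2 lines (exact permutation p between 2.48e-05 and 0.000645, adjusted 0.000149 to 0.000962). Their rho was 0.905 and 0.929, 0.857 and 0.952, and 0.952 and 1.0 (exact permutation p between 4.96e-05 and 0.0107, adjusted 0.000298 to 0.0138). By rho Mmp8 equalled Lcn2 in the P2 line, and in the P2H2 line the libraries ranked by Mmp9, by Camp and by Mmp8 exactly as by Ltf.

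For the other members, Camp had r of 0.985 and 0.929, Mmp8 0.970 and 0.919, Chil3 0.947 and 0.818, and Lyz2 0.895 and 0.875 (exact permutation p between 2.48e-05 and 0.0223, adjusted 0.000149 to 0.0251). Their rho was 0.952, 0.976, 0.786 and 0.929 in the P2 line and 1.0, 1.0, 0.833 and 0.905 in the P2H2 line (exact permutation p between 4.96e-05 and 0.0279, adjusted 0.000298 to 0.0314). Without P2KO replicate 6 and P2WT replicate 10, r in the P2 line was between 0.857 (Chil3) and 0.993 (Lcn2) for the 8 members. The value for Chil3 in the P2H2 line dropped to 0.611 over 6 libraries without P2H2KO replicate 17 and P2H2WT replicate 18, and so rests in large part on them, and the other 7 members kept r between 0.764 (Mmp8) and 0.979. No relation to Ltf was detected for Ltb4r2, with r of -0.229 and 0.168 and rho of -0.143 and 0.119 (exact permutation p between 0.593 and 0.793, adjusted 0.628 to 0.793). After removal of the group means, the 36 pairs among the 9 abundant members had r between 0.819 and 0.996, with a median of 0.956, over 16 libraries that share their depth and cell content.

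The ratio of a member to Ltf within a library varied less than the level itself. Ltf varied with a within-group SD of 0.42 on the log2 scale. The log2 ratio of Lcn2 to Ltf had a within-group SD of 0.040, that of Cd177 0.065 and that of Ngp 0.074. For Camp it was 0.14, for Mmp9 0.15, for Mmp8 0.18, and for Chil3 and Lyz2 0.19. For Mpo, the myeloperoxidase of azurophil granules, it was 0.57, wider than the SD of Ltf itself. The calprotectin genes S100a8 and S100a9, which encode abundant cytosolic proteins and not granule proteins, had SDs of 0.074 and 0.067, like that of Ngp. Tight covariation with Ltf was therefore not limited to granule genes. In these bulk libraries a lower share of neutrophils, another mix of their maturation stages and less RNA per neutrophil cannot be told apart.

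**Figure D4:**
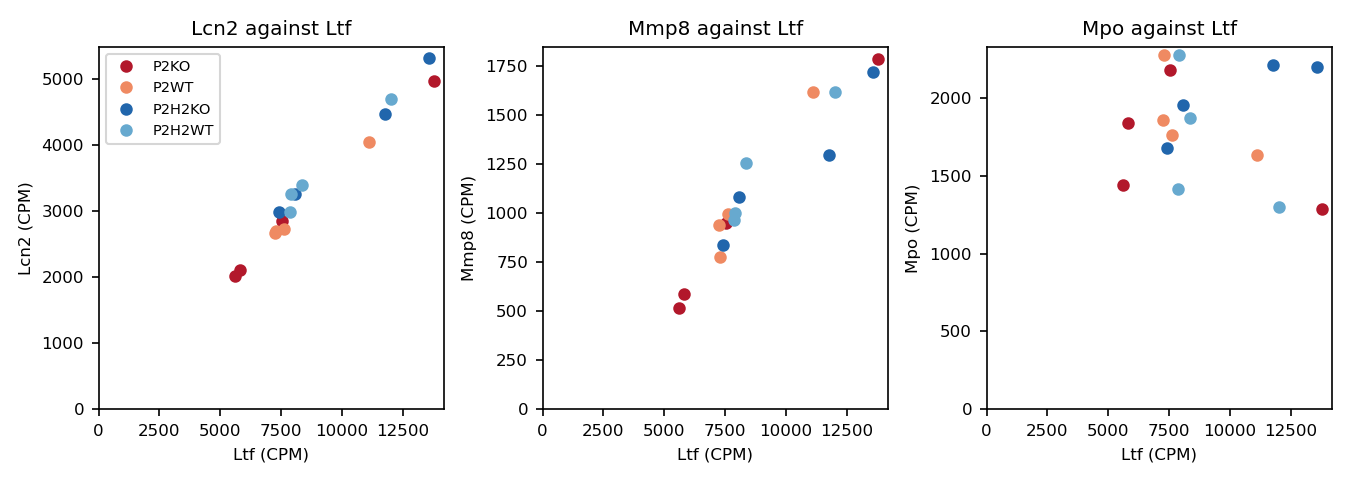
CPM of Lcn2, Mmp8 and Mpo against that of Ltf in 16 libraries, coloured by group, on linear axes from 0. Lcn2 and Mmp8 lie along a rising line in all groups, whereas Mpo lies between 1287 and 2281 CPM and is lowest of its group in the library with the highest Ltf in P2KO (1287 CPM), P2WT (1638 CPM) and P2H2WT (1299 CPM).

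Genes most like Ltf by the correlation of their deviations from the group means, over 16 libraries and among 6901 protein-coding genes that are not members, were Mmp25, Zfand3 and Glrx (r of 0.995 each), Anxa1 (0.994) and Pglyrp1 (0.993). Mmp25 encodes a membrane-anchored metalloproteinase of neutrophils, Pglyrp1 a peptidoglycan-binding granule protein and Anxa1 annexin A1. Most like Mmp8 were Dhrs7 (0.990), the formyl peptide receptor gene Fpr1 (0.988), Cep19 (0.983), the interleukin-1 receptor antagonist Il1rn (0.982) and S100a9 (0.982). Over all 6901 genes the median r with Ltf was 0.048.

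Other genes of these granules were taken from a list of 29, of which 26 reached a mean of 20 CPM. Of these, 25 had a positive r with Ltf, with a median of 0.938, and the exception was Vamp2, a vesicle fusion protein, at -0.351. Of the 8 granule transcription factors 7 were positive, with a median of 0.812, and Gfi1, a repressor active in early granulopoiesis, stood at -0.511. Cebpe, which encodes C/EBPε, was highest in the same libraries as the members, at 226 CPM in P2KO replicate 6, 173 in P2WT replicate 10, 229.7 in P2H2KO replicate 17 and 213 in P2H2WT replicate 18. By contrast 1 of 8 azurophil granule genes was positive, with a median of -0.149. All 18 cell cycle genes and all 13 erythroid markers were negative, with medians of -0.776 and -0.725. All 8 B cell markers that reached 20 CPM were negative too, with a median of -0.46. All 8 neutrophil markers and all 9 mature neutrophil genes were positive, with medians of 0.974 and 0.826. For 16 monocyte and macrophage markers the median was 0.198, with 9 positive.

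The P2KO library with the highest Ltf held the lowest erythroid sum of its group. Replicate 6 held 13790.0 CPM of Ltf beside 27743 CPM of erythroid markers, replicate 5 held 5796 CPM beside 49464, and replicate 9 held 5620.0 beside 45020. P2WT differed, as replicate 7 held its lowest erythroid sum, 34095 CPM, beside 7280.0 CPM of Ltf. Its replicate 10, with 11105 CPM of Ltf, held 36267. In P2H2KO, replicate 15 held 11786 CPM of Ltf and 27317 of erythroid markers, but replicate 17, with 13564 CPM of Ltf, held 40121. P2H2WT was like P2KO, as replicate 18 held both its highest Ltf, 12015 CPM, and its lowest erythroid sum, 39450.0 CPM. CPM here are relative to TMM-scaled library sizes and so are not plain shares of a library. The part of the erythroid counts in the Ltf levels was not tested. With library sizes computed without the erythroid markers, a setting chosen after seeing the data, the log2 fold change of Ltf was -0.016 in the P2 line and 0.17 in the P2H2 line. With library sizes computed without the members it was -0.031 and 0.17.

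Of the 29 other specific and gelatinase granule genes, 27 were tested in the P2 line and edgeR called 0. Their log2 fold changes were above 0 for 10 and below 0 for 17, with a median of -0.036, and 1 gene had an unadjusted p under 0.05, against 3.49% of all genes. In the P2H2 line 26 were tested and 0 called, 23 above 0 and 3 below, with a median of 0.10 and again 1 gene at an unadjusted p under 0.05, against 2.63% of all genes. The 4 most abundant were Cybb, the flavocytochrome subunit of the NADPH oxidase, Retnlg, a resistin-like protein, Itgb2, the β2 integrin chain, and Hp, haptoglobin. Their log2 fold changes were -0.060, -0.061, -0.052 and -0.073 in the P2 line, in that order, and 0.13, 0.19, 0.11 and 0.13 in the P2H2 line, with an edgeR adjusted p of 1 in each case. Cebpe stood at 0.14 (95% interval -0.27 to 0.55) and 0.11 (-0.22 to 0.44) in the 2 lines. For the difference of the effects 26 of 27 genes of the list were below 0, and between the wild-type controls 24 of 27 were, with medians of -0.15 and -0.16. Over all genes tested, 50.4% and 46.6% were above 0 in these comparisons. Most genes of the list varied together with Ltf, so their directions are not separate results. Between the wild-type controls edgeR called 0, with 3 lower and 1 higher at an unadjusted p under 0.05, 4 of 27 against 11.4% of all genes. DESeq2 called 1 of the 27 there, against 3.08% of all genes. It was Orm1, an acute-phase α1-acid glycoprotein, lower in P2WT (DESeq2 adjusted p 0.0198, edgeR adjusted p 0.111, edgeR log2 fold change -0.51).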

How the data were processed

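The authors deposited 2 tables of raw counts per gene, 1 per mouse line, with 8 libraries each, per the file headers. HTSeq and mm10 are named in the submitters' processing notes; the aligner, annotation and use of strand are not given in the sources used here. Groups and replicate numbers came from titles and descriptions. Symbols (GENCODE M21, GRCm38) matched 49326 of 49585 identifiers, and the others held 0.00714% of counts. Total counts ran from 23450746 to 28601284 per library.

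From the deposited counts, edgeR 4.0.16 in R 4.3.3 (filterByExpr, TMM, robust glmQLFit, glmQLFTest) gave two-sided tests within each line, between the wild types, and of the difference of effects over 16 libraries, with Benjamini-Hochberg adjustment across every gene tested (threshold 0.05). CPM and log2 CPM (prior count 2) were computed here from the deposited counts with TMM-scaled library sizes. Correlations used all pairings of 8 libraries (numpy 2.4.6, scipy 1.17.1), whose smallest possible p is 2.48e-05. Alternatives were RLE and upper-quartile factors, other filters, DESeq2 1.42.0, covariates, sizes without members or erythroid markers, summed near copies, a prior count of 0.5, and each library left out. The procedure was tested on simulated data. Members and lists were chosen with earlier results of these data known. Named genes were the members, the 4 most abundant other granule genes, list genes called in any comparison by edgeR (none was; DESeq2 called Klrb1c and Gzma in P2KO against P2WT, and Orm1, Cenpf and Fcer1a between the wild types), Cebpe, near copies and neighbours of members, and the 5 genes most like Ltf and Mmp8. Other list genes (Vamp2, Gfi1, Hbb-bs, Prg2, Mpo, S100a8, Dcstamp and Calcr) were singled out after their values were seen. Motifs were searched on both strands of the 250 bases before each RefSeq start. Ahsp, the erythroid marker not found in the tables' symbols, was not used.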

Additional observations from a re-analysis of the deposited data

Results flagged for a closer look

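In 5 of the 40 groups of 4 libraries examined, 1 library stood apart from the other 3 by a gap, as a share of the group's range, above Dixon's 95% critical value. Chance alone gives about 1 in 20, and the members vary together, so the 5 are not separate events. In P2WT, replicate 10 stood above the others for Ltf (gap over range 0.897), Ngp (0.937), Lcn2 (0.951) and Cd177 (0.89). In P2H2WT, replicate 18 stood above the others for Ltf (0.888). The erythroid marker sum was 36267 CPM in P2WT replicate 10, inside the range of its group. In P2H2WT replicate 18 it was 39450.0 CPM, the lowest of its group. The part of the erythroid sum in these levels was not tested.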

How the results depend on the processing

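No member passed an adjusted p of 0.05 under any setting except Lyz2 between the wild-type controls with the erythroid covariate (1 member called, log2 fold change -0.42, edgeR adjusted p 0.0284). Of 387 member fold changes under other settings, 367 kept their direction and side of the threshold, and of 360 with a library left out 307 did (smallest edgeR adjusted p 0.213). The genes called in P2KO against P2WT numbered 6, and 23 with DESeq2, 4 with the title suffix as a covariate, 10 from the fit of all 16 libraries, 10 with the erythroid covariate and 4 to 6 with a library left out. In P2H2KO against P2H2WT they numbered 10, and 42 with DESeq2, 15 with the erythroid covariate and 6 to 9 with a library left out. For the difference of the effects the count was 0 with every library left out. Between the wild-type controls they numbered 166, and 87 with at least 10 counts in every library, 419 with DESeq2, 838 with the erythroid covariate and 76 (without P2WT replicate 10) to 167 with a library left out. These members changed sign, and the cause was not tested. In the P2 line the erythroid covariate gave log2 fold changes of 0.022 for Ltf, 0.030 for Ngp, 0.022 for Lcn2 and 0.027 for Cd177, the suffix gave -0.080 for Mmp9, and omission of P2KO replicate 6 and P2WT replicate 10 together gave -0.068 for Camp and -0.28 for Mmp9. In the P2H2 line the suffix and the erythroid covariate gave -0.12 and -0.10 for Chil3, -0.066 and -0.065 for Mmp8, and -0.14 and -0.14 for Lyz2, and no filter gave -3.1e-05 for Chil3. For the difference of the effects the erythroid covariate gave 0.0034 for Ltf, 0.056 for Camp, 0.062 for Chil3 and 0.0057 for Lyz2, and the suffix 0.0058 for Chil3. With each library left out in turn, the P2 line gave log2 fold changes of -0.38 to 0.17 for Ltf, -0.19 to 0.17 for Camp, -0.31 to 0.16 for Ngp, -0.37 to 0.16 for Lcn2, -0.30 to 0.063 for Chil3, -0.37 to 0.18 for Cd177, -0.65 to 0.11 for Mmp8 and -0.47 to 0.25 for Mmp9, each lowest without P2KO replicate 6. The P2H2 line gave -0.075 to 0.25 for Camp, -0.011 to 0.31 for Ngp, -0.00086 to 0.32 for Lcn2, -0.12 to 0.11 for Chil3, -0.17 to 0.20 for Mmp8 and -0.091 to 0.15 for Lyz2, each lowest without P2H2KO replicate 17. The difference gave -0.31 to 0.089 for Camp, -0.33 to 0.042 for Chil3, -0.69 to 0.058 for Mmp8 and -0.70 to 0.017 for Mmp9, each lowest without P2KO replicate 6, and the wild-type controls -0.30 to 0.034 for Ltf and -0.38 to 0.00048 for Mmp9, both highest without P2H2WT replicate 18. The relations to Ltf called were 8 in each line with either prior count. The share of all genes that the same test would call is not given here. Depth limits only Ltb4r2, with at most 8 counts in a library, and the precision of the other members is set by the spread between 4 libraries a group. No paired analysis was possible because the groups compared share no replicate number.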
